A study of Mus musculus with 52 samples.

Results

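The genes described here encode plasma membrane and organelle carriers of amino acids and related solutes. They were taken from the table of RNA polymerase II (Pol II) at transcription start sites (TSSs) as every gene symbol that starts with Slc1a, Slc3a, Slc7a, Slc36a, Slc38a, Slc6a or Slc43a. This gave 65 of 24194 gene symbols, with 81 of 27815 TSS windows, and each symbol was represented by the window in which its mean density was highest. Of the 65 members, 33 passed the filter on low density and were tested among 12097 genes. The other 32 had a mean density of at most 0.279 on the authors' scale and were not tested. The rule goes by name, so it also holds the opposite-strand symbols Slc7a6os, Slc36a1os and Slc6a19os, which are not carriers, and the SLC6 carriers of monoamines, creatine and taurine.

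Chromatin immunoprecipitation with sequencing was applied to primary cultured neurons of CD1 mice, for Pol II and for H3K27ac, an acetylated histone form found at enhancers and promoters in use. Neurons were kept in U0126, which blocks the ERK pathway at MEK1 and MEK2, or in vehicle (DMSO). In each arm, Pol II was measured in unstimulated neurons labelled 1 h or 6 h and after 1, 10, 30, 60, 180 and 360 min of neuronal activity, and H3K27ac was measured in unstimulated neurons and after 10, 30 and 60 min. The 16 Pol II groups and 8 H3K27ac groups had 2 libraries each, apart from the 1 Pol II library for U0126 at 180 min. The sources used here do not give the stimulus, the brain region or the age of the mice, and the labels name no genetic change in any group. Nothing in the labels says that the libraries of a group came from separate cultures, so the p-values measure the spread between these libraries, which may be technical.

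Amino acid carriers set how much arginine, leucine, glutamine or glutamate a neuron takes up, and they also end synaptic signals by clearing glutamate, GABA and glycine. The carriers of large neutral amino acids and of cystine work as pairs, in which a light chain of the SLC7 family transports and the heavy chain encoded by Slc3a2 brings it to the cell surface. Leucine, arginine and glutamine that enter through amino acid carriers regulate the kinase complex mTORC1 at the lysosome. Scarcity of amino acids raises transcription of several carriers through the factor ATF4. Pol II density at a TSS reports polymerase present at the start of the gene and is not a measure of RNA or protein.

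The neuronal identity of the cultures was checked with marker genes. All 8 neuron markers tested passed the filter, with mean densities between 0.419 for Rbfox3 and 5.15 for Tubb3, as did 6 of 6 markers of GABAergic neurons and 4 of 6 of glutamatergic neurons. The glutamatergic markers that did not pass were Slc17a7 (0.203) and Slc17a6 (0.248), which encode the vesicular glutamate carriers. Of the markers of other cells, 1 of 7 for astrocytes passed (Sox9, 2.54), 3 of 7 for the oligodendrocyte lineage (Olig2, Olig1 and Pdgfra, 1.15, 0.942 and 0.332), 0 of 6 for microglia and 0 of 7 for endothelial cells and fibroblasts. The astrocyte markers Gfap (0.251) and Aqp4 (0.197) were below the filter of 0.301. In a mixed culture, fewer cells of a type and less Pol II per cell cannot be told apart. The summed density of the 31 Pol II libraries was between 15568 and 18507, and 0.723% to 11.5% of windows were at 0. No file holds read counts, so the depth of each library is unknown.

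Across all libraries, and over TSS windows that are all 600 bp long, the carriers with the most Pol II were those for neutral amino acids. Mean density was 2.91 at Slc38a2, a sodium-coupled carrier of glutamine and alanine, 2.91 at Slc1a4, a carrier of serine and alanine, 2.77 at Slc7a5, the light chain for leucine and other large neutral amino acids, and 2.68 at the heavy chain gene Slc3a2. Slc1a1, the glutamate carrier of neurons, had 1.86, Slc43a2, a large neutral carrier that needs no heavy chain, 1.65, and Slc38a1 1.59. The highest value of any member, 3.60, belonged to Slc7a6os. At the low end of the tested members were Slc6a11, a GABA carrier known from astrocytes, with 0.366, Slc7a14 with 0.381 and Slc43a1 with 0.391. The astrocyte glutamate carrier Slc1a3 followed with 0.423. Slc1a2 and Slc38a3, also known from glia, were higher, with 0.587 and 0.811. The tested members had a median density of 0.811, against 0.968 for all genes tested. The windows of Slc7a5, Slc7a6os, Slc3a2 and Slc38a6 overlap a window of another symbol (BC048644, Prmt7, Snhg1 and Trmt5), so Pol II of each pair cannot be separated.

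**Figure D1:**
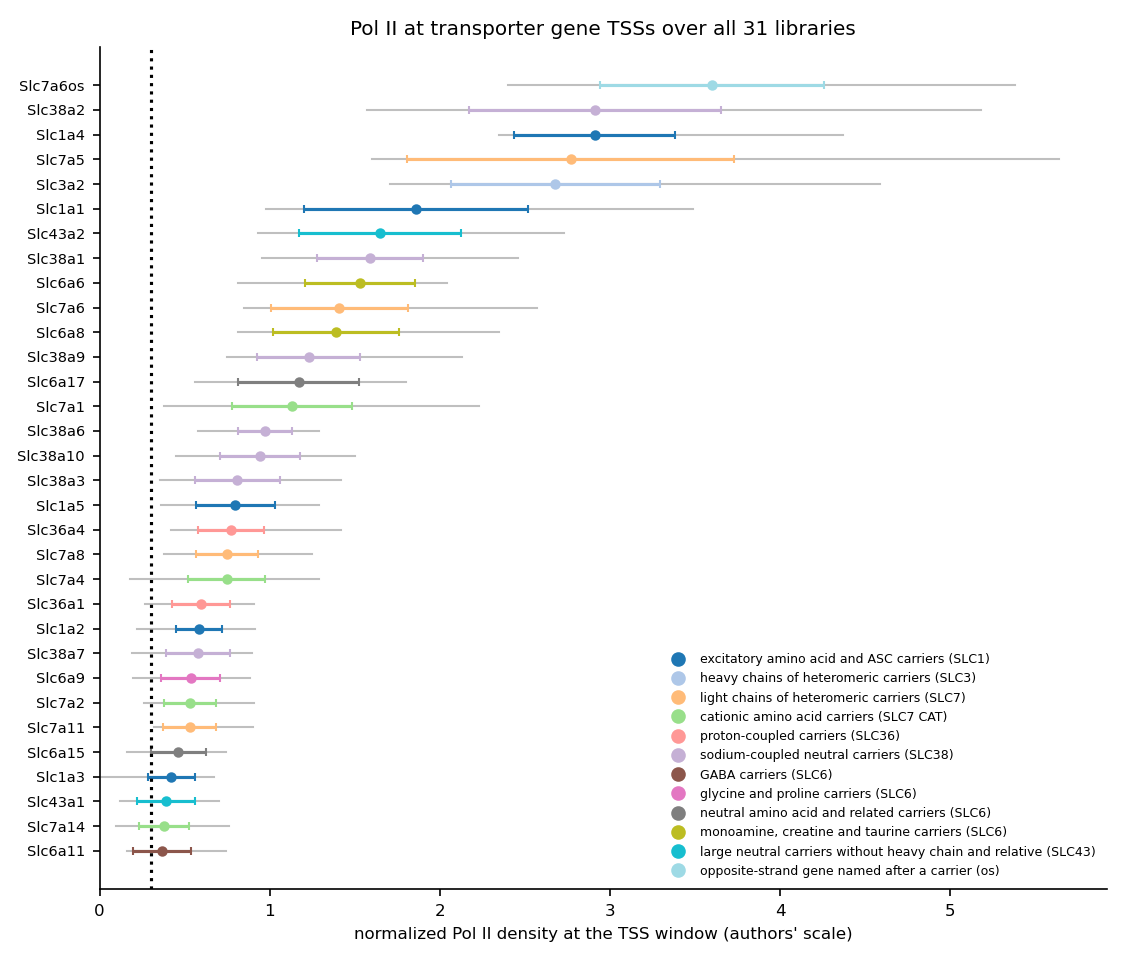
Normalized Pol II density (authors' scale, x axis) at the TSS windows of 32 tested members, ordered by mean. Points are means over the 31 libraries, coloured bars their SD, grey lines the range over libraries, and the dotted line the lowest mean density tested (0.301). Slc7a6os, Slc1a4, Slc38a2, Slc7a5 and Slc3a2 stand above a mean of 2.6, and Slc6a11 is lowest at 0.366.

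By family, 5 of 7 SLC1 symbols, 1 of 2 SLC3, 9 of 16 SLC7, 2 of 5 SLC36, 7 of 11 SLC38, 7 of 21 SLC6 and 2 of 3 SLC43 symbols were tested. Single libraries of the 32 untested members had densities between 0 and 0.611. Among them were the dopamine, noradrenaline and serotonin carriers Slc6a3, Slc6a2 and Slc6a4, the glycine and proline carriers Slc6a5 and Slc6a7, the cationic carrier Slc7a3, and the light chain Slc7a10 of astrocytes. Their low density does not show that they were silent, and no fold change is given for them. The study had marked 2 tested members, Slc7a1 and Slc6a17, as delayed primary response genes (dPRG) and 3, Slc36a1, Slc6a11 and Slc6a15, as control TSSs, which the authors used for normalization. It is not stated on which samples the marks rest, so they are not independent evidence for these genes' values.

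Slc7a1, the main carrier of arginine and lysine in most cells, had the largest rise of any member with activity. Its window lies on chromosome 5, 149211180 to 149211780 (mm9), and a second window 7089 bp away had a mean density of 0.155 and was not used. The RefSeq start of the gene has its other start at the same spacing, 7089 bp, and the promoter around it (GRCm38.p6, 250 bases before the start and 50 from it) is shown with motifs in capitals, since Pol II was measured at this start. The letters searched were TGACGTCA, the full cAMP response element (CRE), and its shorter form TGACG, which every full CRE contains, the AP-1 motif TGANTCA, the motif TGATGNAA of C/EBP and ATF pairs, the EGR motif GCGNGGGCG, and the CArG box of SRF, on both strands.
Slc7a1, chr5:148399855-148400154, minus strand: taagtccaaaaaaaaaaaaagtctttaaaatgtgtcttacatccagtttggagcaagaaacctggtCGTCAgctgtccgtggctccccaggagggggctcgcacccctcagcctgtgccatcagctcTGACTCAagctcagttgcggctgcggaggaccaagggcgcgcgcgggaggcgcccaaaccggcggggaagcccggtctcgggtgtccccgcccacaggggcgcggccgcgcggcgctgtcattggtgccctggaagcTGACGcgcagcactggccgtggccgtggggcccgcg
The capitals mark TGACG on the reverse strand at -184 to -180 and on the forward strand at 14 to 18, counted from 0 at the start, and the AP-1 letters at -123 to -117. TGACG occurs in 20.8% and TGANTCA in 7.81% of the 32851 promoters of the table, so the letters are common and say nothing on binding.

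At Slc7a1, Pol II density in the vehicle libraries was 0.379 and 0.799 in unstimulated neurons of 1 h, 1.44 and 1.36 at 1 min, 2.23 and 1.51 at 10 min, 1.33 and 1.08 at 30 min, and 1.48 and 1.15 at 60 min. All 8 activity libraries of these 4 times lay above both unstimulated libraries, and the highest were those of 10 min. Against unstimulated neurons of 1 h, the log2 fold change was 1.47 at 10 min (SE 0.296, 95% interval 0.87 to 2.08, limma adjusted p 0.0218, n = 2 per group). Slc7a1 was thereby the single member of 33 called at an adjusted p under 0.05, while 0.182% of the 12097 genes were called higher and 0.19% in either direction. At 1 min the value was 1.13 (SE 0.296, interval 0.53 to 1.73, unadjusted p 0.00055). There limma called 0 genes of all tested, and the adjusted p of Slc7a1 was 1.

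At 30 and 60 min the log2 fold change of Slc7a1 was 0.90 (interval 0.30 to 1.51, limma adjusted p 0.118) and 1.01 (interval 0.41 to 1.62, adjusted p 0.212). These comparisons share the same unstimulated libraries, so they are not independent of each other. The unstimulated replicate 1 held the lowest Slc7a1 density of all 31 libraries. Without it the value at 10 min was 1.05 (limma adjusted p 0.535), and those at 1, 30 and 60 min were 0.71, 0.48 and 0.59. Without vehicle 10 min replicate 1 the value at 10 min was 1.20 (adjusted p 0.697). With all 4 unstimulated vehicle libraries of 1 h and 6 h as the baseline, it was 1.21 at 10 min (adjusted p 0.0252). Leaving out a library leaves a group of 1, and its spread is then taken from the other groups.

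In the later series, Slc7a1 was near its 6 h baseline. Density was 1.10 and 0.667 in unstimulated neurons of 6 h, 1.12 and 1.21 at 180 min, and 0.731 and 0.791 at 360 min. The 180 min libraries lay just above the baseline libraries and the 360 min libraries between them. The log2 fold changes were 0.31 (limma adjusted p 0.991) and -0.19 (adjusted p 1).

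**Figure D2:**
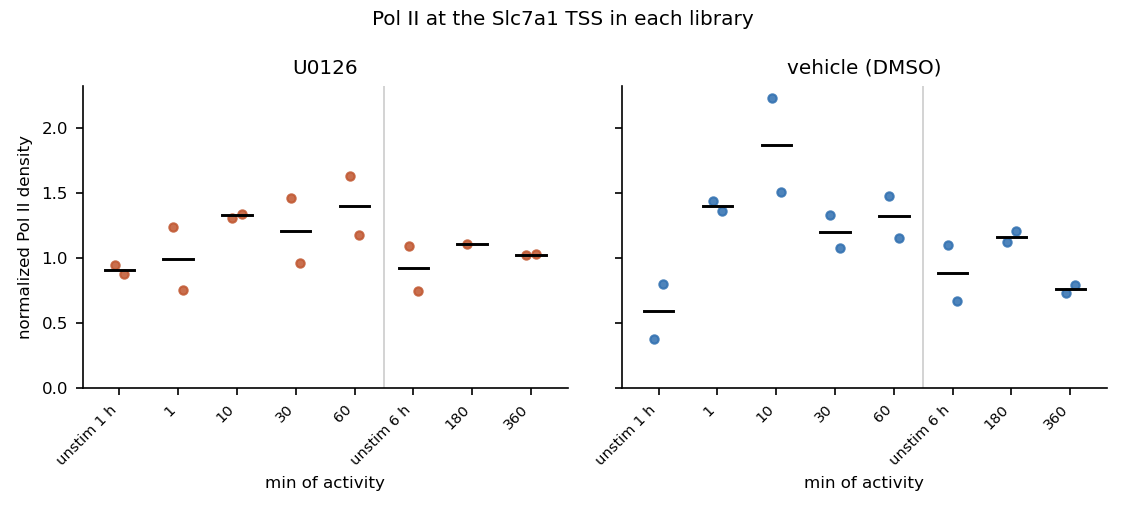
Normalized Pol II density (authors' scale, y axis) at the Slc7a1 TSS by min of activity (x axis), in U0126 (left) and vehicle (right). Points are libraries, bars group means, and the vertical line separates the 1 h series from the 6 h series with its own unstimulated libraries. In vehicle the 10 min libraries are at 2.23 and 1.51, against 0.379 and 0.799 in unstimulated neurons, while in U0126 they are at 1.31 and 1.34, against 0.942 and 0.875.

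No other cationic carrier or relative of these carriers was called. Slc7a2, an arginine carrier, had log2 fold changes of -0.04 at 10 min and -0.14 at 30 min in vehicle, both near 0 and positive (0.03 and 0.04) with quantile normalization. Slc7a4, a relative of these carriers, had densities of 0.179 and 0.522 at 30 min, against 0.626 and 0.818 in unstimulated neurons. Both 30 min libraries were lower, with a log2 fold change of -0.91 (interval -1.60 to -0.22, limma adjusted p 0.179). Slc7a14, another relative, was at -0.50 at 30 min. The genes whose 16 Pol II group means were most like those of Slc7a1 were Cox4i1 (Pearson r 0.89 on the log2 scale), Emc8-1190005i06rik (0.87), Emc8 (0.87), Pip5k1c (0.84) and Actg1 (0.83), and members described here with high values were Slc6a17 (0.66), Slc38a2 (0.61) and Slc6a6 (0.57). These r values describe groups that share libraries and baselines and carry no test.

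Slc6a17, which encodes a carrier of neutral amino acids on synaptic vesicles, was the other member marked dPRG. Its window lies on chromosome 3, 107320636 to 107321236 (mm9), and its further window 17278 bp away had a mean of 0.177. The promoter at the RefSeq start with the same spacing to its alternative start is given for comparison with that of Slc7a1.
Slc6a17, chr3:107517969-107518268, minus strand: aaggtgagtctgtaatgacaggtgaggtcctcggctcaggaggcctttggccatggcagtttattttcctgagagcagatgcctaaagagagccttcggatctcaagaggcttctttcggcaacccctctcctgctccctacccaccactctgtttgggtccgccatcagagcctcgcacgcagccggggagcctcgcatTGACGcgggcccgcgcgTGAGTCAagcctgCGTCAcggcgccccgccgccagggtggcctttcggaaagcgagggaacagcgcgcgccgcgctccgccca
It holds TGACG at -50 to -46 and, on the reverse strand, at -20 to -16, with the AP-1 letters TGAGTCA between them at -33 to -27. Of the 29 promoters of tested members in the table, 12 hold TGACG and 5 the AP-1 motif. The full CRE occurs in 1 of the 29 (Slc38a6) and in 1.79% of all promoters, and the CArG box in 0 of the 29 and in 1.63% of all.

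Pol II at Slc6a17 was 1.44 and 1.68 at 10 min, 1.32 and 1.65 at 30 min and 1.62 and 1.28 at 60 min, against 1.08 and 0.562 in unstimulated neurons of 1 h. All 6 activity libraries of these times exceeded both unstimulated ones. The log2 fold changes were 0.85, 0.77 and 0.74 (SE 0.313), with unadjusted p of 0.01, 0.0189 and 0.0247, and none passed over all genes (limma adjusted p 0.341, 0.225 and 0.404). Without vehicle unstimulated 1 h replicate 2 they were 0.46, 0.38 and 0.34. At 1 min the value was 0.08. The 6 h series gave 0.40 at 180 min and -0.24 at 360 min, with libraries that overlapped those of the baseline.

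In the windows used here, the heavy chain gene Slc3a2 and its leucine-carrying partner Slc7a5 had their highest mean Pol II at 30 min. Slc7a5 (chromosome 8, 124431286 to 124431886) had densities of 2.89 and 3.12 at 10 min, 5.30 and 3.21 at 30 min and 4.14 and 3.10 at 60 min, against 1.85 and 2.24 in unstimulated neurons. Every one of these 6 libraries was above the baseline, with replicate 1 well above replicate 2 at 30 and 60 min. The log2 fold change was 0.51 at 10 min, 0.95 at 30 min (SE 0.257, interval 0.42 to 1.47, limma adjusted p 0.0542) and 0.74 at 60 min (adjusted p 0.312).

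Slc3a2 (chromosome 19, 8797559 to 8798159) had 4.59 and 3.13 at 30 min and 2.24 and 2.80 at 60 min, against 2.13 and 2.37 in unstimulated neurons. The 30 min libraries were higher and those of 60 min overlapped the baseline. Its log2 fold change was 0.69 at 30 min (interval 0.22 to 1.16, limma adjusted p 0.127) and 0.12 at 60 min. In quantile-normalized data the 30 min value was 0.22 and the 60 min value was -0.14. A further Slc3a2 window, 9472 bp away and not used, had a mean density of 1.74. Its vehicle means were 2.07 at 10 min and 1.92 at 30 min, against 1.4 in unstimulated neurons of 1 h. Of the other tested light chains, Slc7a11, which exchanges cystine for glutamate, had 0.905 and 0.638 at 60 min, against 0.452 and 0.322 in unstimulated neurons, a log2 fold change of 0.75 (interval 0.08 to 1.41, limma adjusted p 0.419). Slc7a8 and Slc7a6 were within 0.4 of 0 on the log2 scale at 10, 30 and 60 min.

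Slc38a2, the sodium-coupled carrier that cells raise when amino acids are scarce, was high at late times too. Its window lies on chromosome 15, 96529829 to 96530429 (mm9), and the promoter is shown because its letters differ from those of Slc7a1.
Slc38a2, chr15:96699679-96699978, minus strand: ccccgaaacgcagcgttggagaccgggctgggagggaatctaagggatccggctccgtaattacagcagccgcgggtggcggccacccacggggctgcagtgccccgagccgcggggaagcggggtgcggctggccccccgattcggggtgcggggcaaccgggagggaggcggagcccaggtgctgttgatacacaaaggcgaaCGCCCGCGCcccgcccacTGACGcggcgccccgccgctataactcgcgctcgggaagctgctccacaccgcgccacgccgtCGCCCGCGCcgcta
It holds TGACG at -27 to -23 and the EGR letters, on the reverse strand, at -45 to -37 and 36 to 44. The EGR motif occurs in 5.55% of all promoters and in 3 of the 29 of tested members, and the motif TGATGNAA in 3.97% of all and in 2 of the 29, those of Slc1a4 and Slc7a11.

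Density at Slc38a2 was 3.51 and 3.02 at 10 min, 5.18 and 3.04 at 30 min and 3.26 and 3.05 at 60 min, against 2.52 and 1.91 in unstimulated neurons of 1 h. In the later series it was 3.02 and 3.29 at 180 min and 3.39 and 2.58 at 360 min, against 1.98 and 1.57 in unstimulated neurons of 6 h. Each activity library at these 5 times was above both of its unstimulated libraries. The log2 fold changes were 0.52, 0.79 (interval 0.30 to 1.28, limma adjusted p 0.0893), 0.46, 0.72 (interval 0.23 to 1.21, adjusted p 0.922) and 0.66, and none was called. Among the other tested SLC38 members, Slc38a1 was at -0.40 at 30 min, and Slc38a9, the lysosomal arginine sensor of mTORC1, at -0.53 at 10 min and 0.02 at 30 min.

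At Slc43a2, values were positive early and negative late, and none was called. Its density was 1.59 and 1.66 in unstimulated neurons of 1 h, 2.27 and 2.45 at 1 min, 2.07 and 2.20 at 10 min, 1.47 and 1.67 at 30 min and 1.16 and 1.25 at 60 min. It was then 1.07 and 1.06 at 180 min and 1.25 and 1.32 at 360 min, against 1.99 and 1.84 in unstimulated neurons of 6 h. Replicates were close, with the 1 and 10 min libraries above their baseline, those of 30 min overlapping it and those of 60, 180 and 360 min below it. The log2 fold change was 0.50 at 1 min (unadjusted p 0.0306) and 0.35 at 10 min. It was -0.42 at 60 min, and at 180 min -0.83 (SE 0.22, interval -1.28 to -0.39, unadjusted p 0.000599, limma adjusted p 0.735). In U0126 the values were 0.41 at 1 min, 0.27 at 10 min, -0.51 at 30 min, -0.65 at 60 min and, from 1 library, -0.53 at 180 min. At 30 min both U0126 libraries were below their baseline, unlike those of vehicle, where the value was -0.07.

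**Figure D3:**
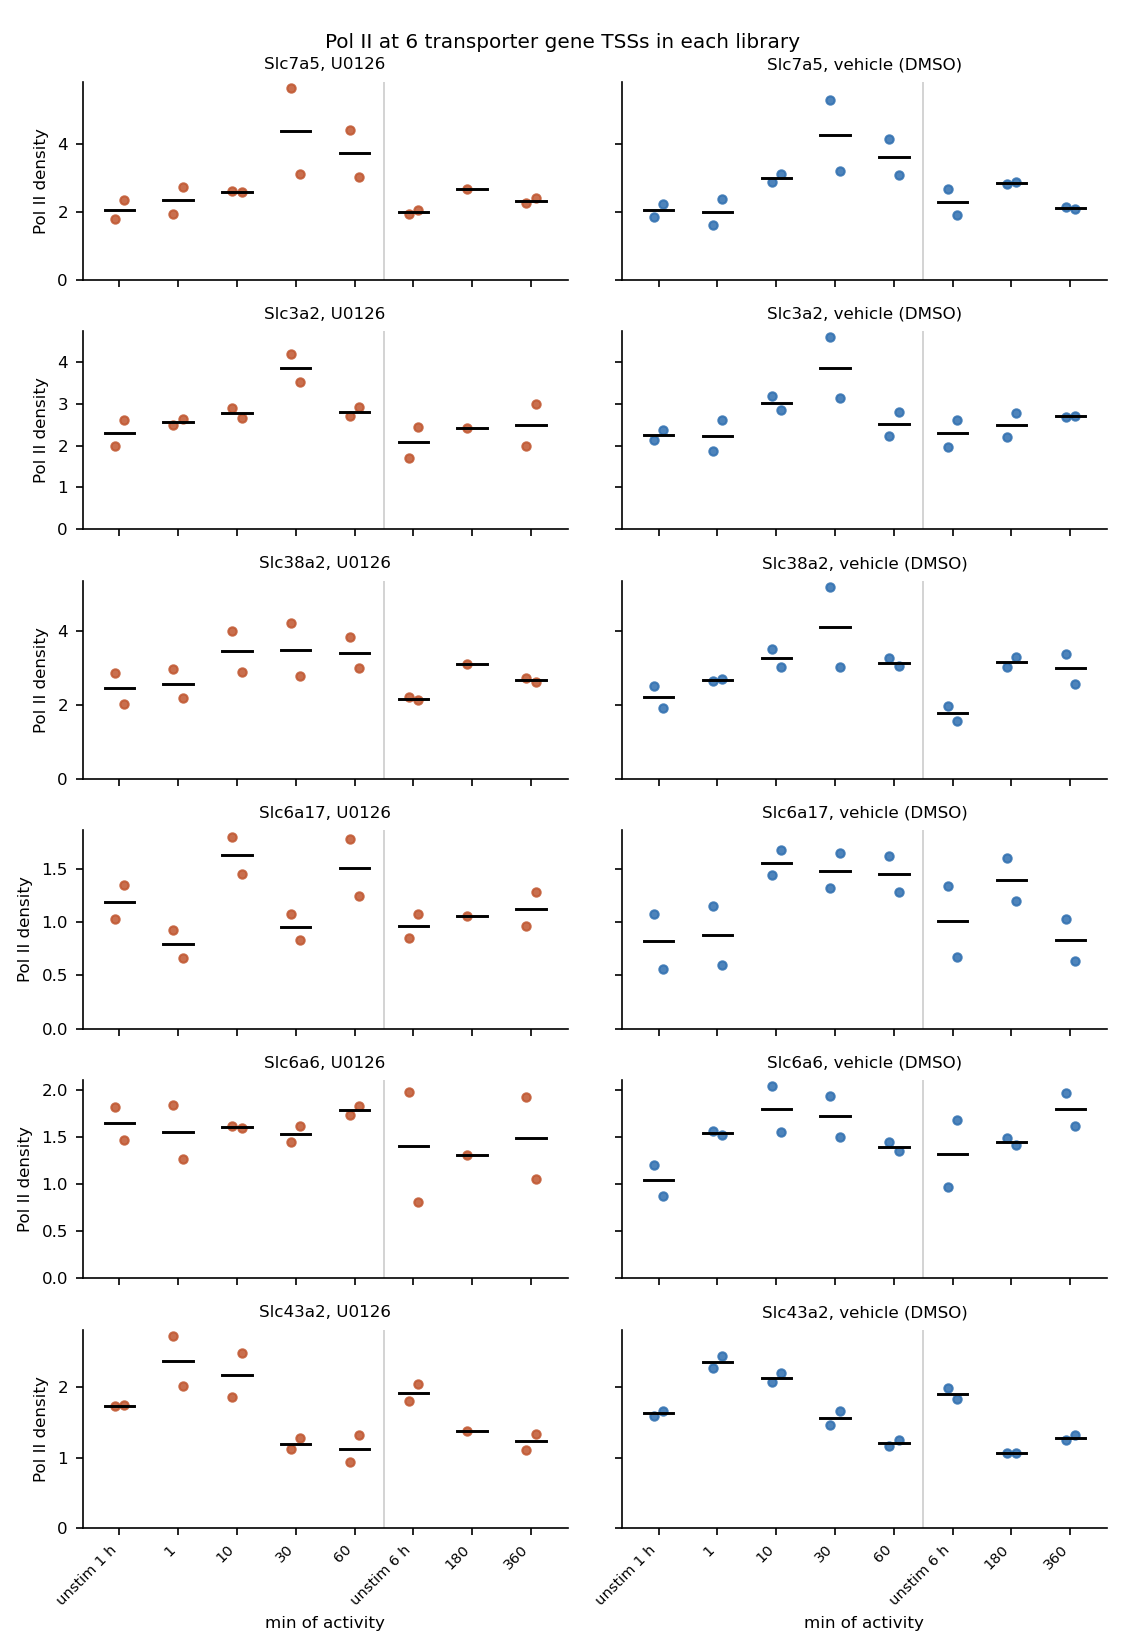
Normalized Pol II density (authors' scale, y axes start at 0) in each library at the TSSs of Slc7a5, Slc3a2, Slc38a2, Slc6a17, Slc6a6 and Slc43a2 by min of activity, in U0126 (left) and vehicle (right). Points are libraries and bars group means. Slc7a5 and Slc3a2 peak at 30 min in both arms, and Slc43a2 is at 1.07 and 1.06 at 180 min in vehicle, against 1.99 and 1.84 in its 6 h baseline.

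Among the SLC6 carriers of neurotransmitters and of osmolytes, no activity difference was called. Slc6a6, the taurine carrier, had 2.04 and 1.55 at 10 min, against 1.20 and 0.875 in unstimulated neurons, a log2 fold change of 0.70 (interval 0.10 to 1.30, limma adjusted p 0.425). Slc6a8, the creatine carrier, was at 0.63 at 30 min (adjusted p 0.277). Slc6a9, the glycine carrier, had negative values at 1, 10, 30 and 60 min, between -0.65 and -0.11, and none was called.

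The 5 tested SLC1 genes, for glutamate and small neutral amino acids, all had positive values at 10 min, with a median of 0.41 against 0.03 for all genes tested, and at 30 min, with a median of 0.44 against 0.02. With quantile normalization 5 of 5 were positive at 10 min and 4 of 5 at 30 min, where Slc1a4 turned to -0.06. None was called. The range at 10 min was 0.37 at Slc1a3 to 0.45 at Slc1a2, both carriers that clear glutamate into astrocytes, and Slc1a1 had 0.42 with replicates far apart (2.97 and 1.42, against 1.58 and 1.39 in unstimulated neurons). The summed density of the 7 astrocyte markers was between 3.18 and 3.45 at 10 min and between 3.96 and 5.45 at 30 min, against 3.54 and 3.59 in unstimulated neurons. Sox9 had a mean of 2.54 over all libraries and each other astrocyte marker at most 0.268, so the sum mainly reports Sox9. The part of this sum in these results was not tested. The proton-coupled lysosomal carrier Slc36a1 and the glutamine carrier Slc38a3 had their lowest values at 180 min, -0.83 and -0.81 (limma adjusted p 0.944 and 0.947). Slc36a1 is a control TSS of the authors' normalization.

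Over the 33 tested members, 23 had a positive value at 10 min with a median of 0.32, against a median of 0.03 and 53.9% positive over all genes. At 30 min 21 were positive with a median of 0.34, against 0.02 and 52.3%, and at 60 min 19 with a median of 0.09, against 0.03 and 52.7%. With quantile normalization the medians of the members were 0.17, 0.22 and 0.06. They were 0.21 at 10 min without vehicle 10 min replicate 1, 0.18 at 30 min without vehicle unstimulated 1 h replicate 2, and -0.06 at 60 min, with 14 positive, without vehicle 60 min replicate 2. The number of members with an unadjusted p under 0.05 was 4 at 10 min, all higher, where 9.6% of all genes met this and 6.72% were higher. It was 10 at 30 min, 9 of them higher, where 14.7% met it and 9.21% were higher. It was 5 at 60 min, all higher, where 10.7% met it and 6.42% were higher, 3 at 1 min (3.43% of all genes), 4 at 180 min (4.89%) and 4 at 360 min (3.1%). After adjustment limma called 0 members at 1, 30, 60, 180 and 360 min, where 0%, 1.42%, 0.157%, 0% and 0% of all genes were called.

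Fold changes went with the level of Pol II. Among the 3024 genes with a density of at least 1.42 the median log2 fold change of all genes was 0.20 at 10 min and 0.27 at 30 min, and that of the 9 members among them 0.39 and 0.55. Among the 3025 genes with a density of 0.301 to 0.609 the medians were -0.06 and -0.23 for all genes and -0.08 and -0.07 for the 12 members among them. Between these levels, with 6 members each above 0.609 and above 0.968, the medians of the members were 0.14 and 0.29 at 10 min, against -0.04 and 0.03 for all genes, and 0.41 and 0.36 at 30 min, against -0.07 and 0.05. The summed density of the 8 neuron markers was also between 12.3 and 13.5 at 10 min and between 12.5 and 15.8 at 30 min, against 10.4 and 10.5 in unstimulated neurons, and its part in the members' values was not tested. The neuronal tubulin gene Tubb3 rose by 0.80 at 30 min (limma adjusted p 0.0269).

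**Figure D4:**
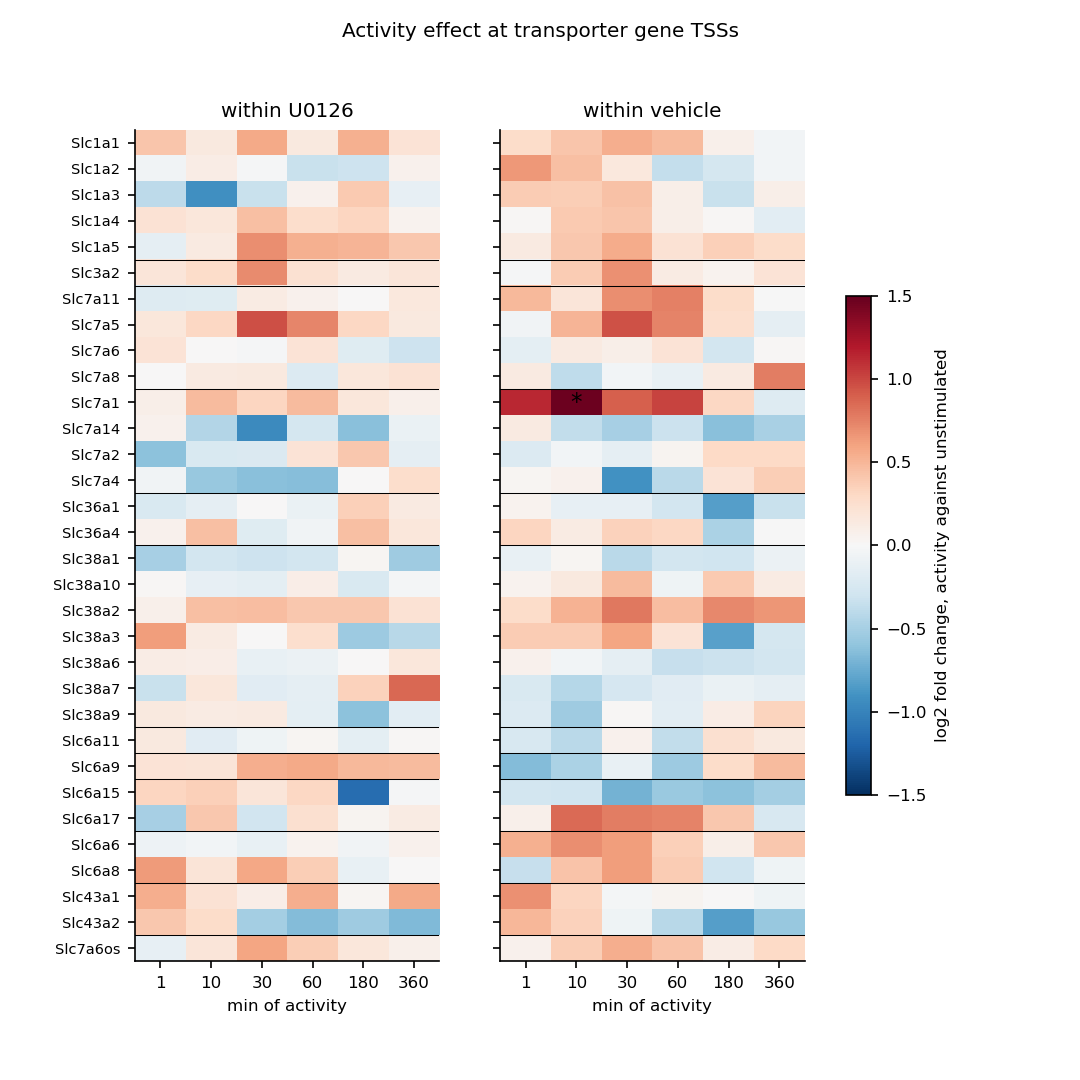
Log2 fold change of Pol II density, activity against unstimulated neurons (colour scale), for 32 tested members by min of activity, within U0126 (left) and within vehicle (right). Lines separate the roles, and the star marks the called value, 1.47 at Slc7a1 at 10 min in vehicle, which is 0.47 in U0126. Slc7a5 is at 0.97 at 30 min in U0126 and at 0.95 in vehicle.

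Other genes of amino acid metabolism were examined from lists of pathway members. Of the 24 tested genes of the ATF4 amino acid response, 1 was called at 30 min in vehicle, where 1.42% of all genes were, Ppp1r15a (log2 fold change 1.19, limma adjusted p 0.021), which encodes a phosphatase subunit that restores translation. The list median was 0.17 against 0.02 for all genes, and Atf4 itself was at 0.21, Atf3 at 0.97 (adjusted p 0.0687) and Sesn2, a sensor of leucine, at 0.80 (adjusted p 0.0893). Of 20 aminoacyl-tRNA synthetases, 1 was called at 30 min, Eprs (1.03, adjusted p 0.0144), with a list median of 0.15. Of 11 genes of glutamate, glutamine and GABA metabolism, 1 was called, Gls2, a glutaminase that makes glutamate from glutamine. It was at 1.57 at 30 min (adjusted p 0.00314) and 1.30 at 60 min (adjusted p 0.0476, where 0.157% of all genes were called), with list medians of 0.26 and 0.12. Of 10 arginine and polyamine genes, 8 had positive values at 30 min with a median of 0.37, among them Azin1 (0.77, adjusted p 0.0806) and Amd1 (0.63, adjusted p 0.12), and 0 were called. The 23 genes of amino acid sensing by mTORC1 had a median of 0.00 at 30 min with 0 called, with Rheb at 0.82 and Lamtor2 at -1.01 as the largest values in either direction (adjusted p 0.085 and 0.0651). The 8 tested vesicular and other carriers had a median of -0.11, with 0 called. For scale, 12 rapid activity genes had a median of 1.33 at 10 min with 7 called, where 0.19% of all genes were, and Fos was at 1.68 (adjusted p 5.51e-05). These lists were assembled with results of these data known.

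U0126 was compared with vehicle at each time, which asks whether Pol II at these genes depends on MEK. At Slc7a1 at 10 min, density was 1.31 and 1.34 in U0126, against 2.23 and 1.51 in vehicle, a log2 difference of -0.42 (interval -1.02 to 0.18, limma adjusted p 1). Without activity, in the 1 h libraries, it was 0.942 and 0.875 in U0126, against 0.379 and 0.799 in vehicle, a difference of 0.59 (interval -0.02 to 1.19, adjusted p 1). The U0126 libraries were below both vehicle libraries at 10 min and above both in unstimulated neurons. Without vehicle 10 min replicate 1 the difference at 10 min was -0.15. Within U0126, Slc7a1 was 0.47 above its own baseline at 10 min (interval -0.13 to 1.07, adjusted p 0.883), 0.32 at 30 min and 0.48 at 60 min.

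The test of whether the Slc7a1 response differed between the arms is the interaction, the activity effect in U0126 minus that in vehicle. It was -1.01 at 10 min (SE 0.419, interval -1.86 to -0.15, unadjusted p 0.0221, limma adjusted p 1), -0.58 at 30 min and -0.53 at 60 min. None passed over all genes, so a dependence of Slc7a1 on MEK was not shown. Without vehicle unstimulated replicate 1 the value at 10 min was -0.58. At 30 and 60 min the difference between U0126 and vehicle itself was 0.00 (interval -0.60 to 0.61) and 0.05 (interval -0.55 to 0.65), with 1.46 and 0.962 at 30 min in U0126, against 1.33 and 1.08 in vehicle.

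The 30 min values of Slc7a5 and Slc3a2 were close in both arms. Slc7a5 had 5.64 and 3.11 in U0126 at 30 min, against 5.30 and 3.21 in vehicle, a log2 difference of 0.04 (interval -0.49 to 0.56). Its activity effect within U0126 was 0.97 at 30 min (interval 0.44 to 1.49, limma adjusted p 0.0814) and the interaction 0.02 (interval -0.72 to 0.76). Slc3a2 had 4.19 and 3.53 in U0126, against 4.59 and 3.13 in vehicle (0.03, interval -0.44 to 0.50), and an activity effect within U0126 of 0.71 (adjusted p 0.175). With quantile normalization the Slc3a2 activity effect within U0126 was 0.29 at 30 min. Slc38a2 had an activity effect of 0.46 at 30 min within U0126, and its interaction was -0.34 (interval -1.03 to 0.36). These intervals do not show equal responses.

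Slc6a17 had the largest interaction of any member at 30 min in absolute size. Density was 1.08 and 0.837 in U0126, against 1.32 and 1.65 in vehicle, with libraries apart and a difference of -0.55 (interval -1.18 to 0.09). The interaction was -1.06 (interval -1.97 to -0.16, unadjusted p 0.0219, limma adjusted p 1), or -0.67 without vehicle unstimulated 1 h replicate 2. The interaction also takes in the arms' difference in unstimulated neurons, so it was larger in size than the 30 min difference. At 10 min Slc6a17 had 1.80 and 1.45 in U0126, against 1.44 and 1.68 in vehicle, a difference of 0.06. Slc6a6 had interactions of -0.75 at 10 min and -0.74 at 30 min, and its unstimulated U0126 libraries of 1 h (1.82 and 1.47) were above those of vehicle (1.20 and 0.875). Slc6a9 was at 1.12 at 60 min (interval -0.01 to 2.25, adjusted p 0.999).

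Slc1a3, the astrocyte glutamate carrier, had the lowest U0126 value of any member at 10 min, -1.13 (interval -2.01 to -0.24, unadjusted p 0.0142, limma adjusted p 1), and averaged over 10, 30 and 60 min, -0.53 (interval -1.04 to -0.02). Its 10 min libraries were 0 and 0.468 in U0126, against 0.586 and 0.452 in vehicle. The groups overlapped, and without the U0126 library at 0 the value was -0.10. The astrocyte markers, mainly Sox9 by density, summed to between 3.41 and 3.79 in U0126 at 10 min, against 3.18 to 3.45 in vehicle. Their part was not tested. Slc6a8 had -0.34 in the average (interval -0.67 to -0.01, unadjusted p 0.0462).

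**Figure D5:**
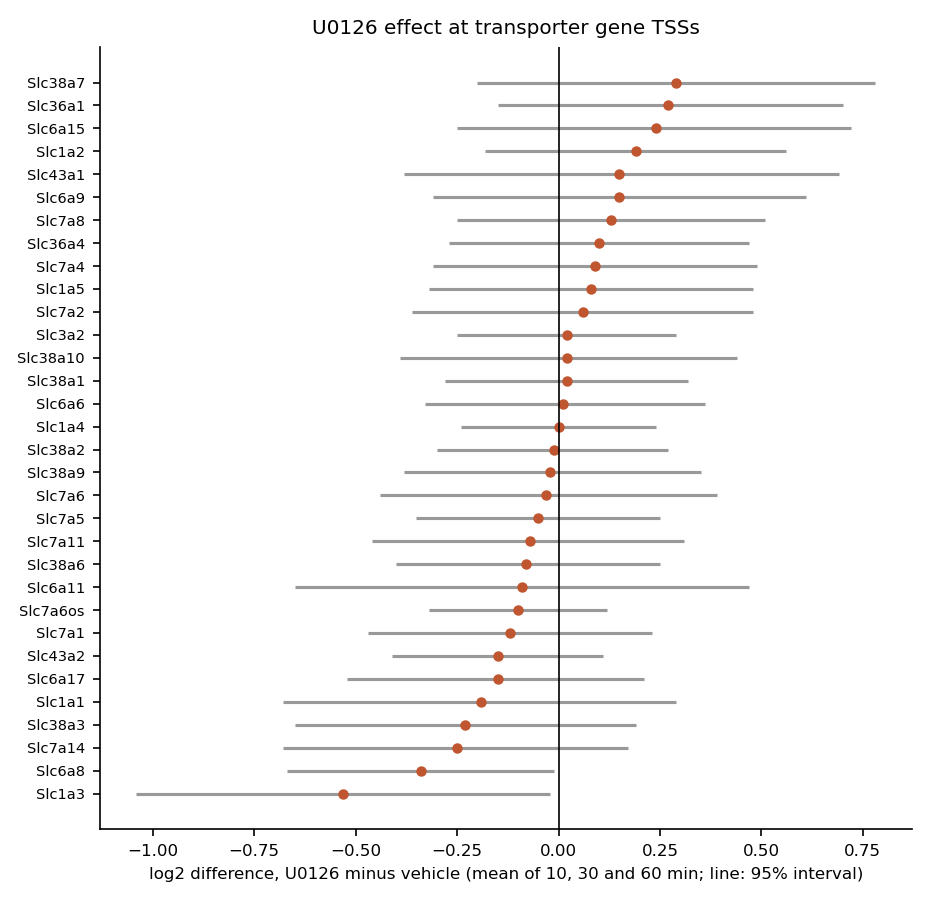
Log2 difference in Pol II density, U0126 minus vehicle, averaged over 10, 30 and 60 min (x axis), for 32 tested members in order of size. Points are estimates and lines 95% intervals, each from 6 libraries per arm. The intervals of Slc1a3 (-0.53) and Slc6a8 (-0.34) end just below 0, those of the other members shown include 0, and none of the 32 was called.

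In the average over 10, 30 and 60 min, limma called 0 of 33 members (0.0165% of all genes were called) and 2 had an unadjusted p under 0.05 (2.97% of all). At the single times 0 members were called, in unstimulated neurons of 1 h and 6 h or at 1, 10, 30, 60, 180 and 360 min. Beside that of Slc1a3, the values with an unadjusted p under 0.05 included -0.92 at Slc38a7 in unstimulated neurons of 6 h, with 0.361 and 0.266 in U0126, against 0.699 and 0.755 in vehicle. Over all genes, 0.00827% were called at 10 min and 0% at the other times. At an unadjusted p under 0.05 there was 1 member each in unstimulated neurons of 1 h and 6 h, at 1, 10, 180 and 360 min, where 2.38%, 2.19%, 2.22%, 3.22%, 2.51% and 0.942% of all genes met this. There were 0 at 30 and 60 min, where 2.14% and 2.5% did. For the interaction limma called 0 members and 0% of all genes at 10, 30 and 60 min, with 2, 1 and 0 members at an unadjusted p under 0.05 (2.8%, 1.92% and 2.38% of all genes). At 10 min the median interaction of the members was -0.19, with 25 of 33 negative, against 0.00 over all genes, of which 49.7% were positive. It was -0.11 without vehicle unstimulated 1 h replicate 2, and -0.14 with 13 members positive without replicate 1 of 10 min in either arm. All 12 rapid activity genes had negative U0126 values at 10 min, with a median of -0.47 and 1 called.

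Within U0126 limma called 0 members at all 6 times. Of all genes, 0.0165%, 0.438% and 0.116% were called at 10, 30 and 60 min, and 0% at the other times. At an unadjusted p under 0.05 there were 8 members at 30 min, 6 of them higher, where 11.2% of all genes met this and 7.87% were higher. At 1, 10, 60, 180 and 360 min there were 1, 1, 2, 1 and 3 members, where 2.6%, 6.33%, 7.91%, 4.85% and 2.93% of all genes did. The largest fall at 30 min was at Slc7a14, with 0.0991 and 0.160, against 0.359 and 0.402 in unstimulated U0126 neurons (-0.95, limma adjusted p 0.261).

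Of the 940 enhancer regions with H3K27ac values, 8 have a member as the nearest gene in the authors' table. Of these, 5 lie nearest Slc6a17, 2 nearest Slc7a1 (54130 and 64110 bp away) and 1 nearest Slc7a3, the cationic carrier with untested Pol II (21621 bp away). At the Slc7a1 region at chromosome 5, 149274990 to 149276190 (mm9), the signal in vehicle was 2.20 and 0.902 at 10 min, 1.61 and 0.648 at 30 min and 1.15 and 0.498 at 60 min, against 2.04 and 1.48 in unstimulated neurons. The replicates were far apart, and the log2 fold changes were -0.16, -0.42 and -0.71 (interval at 60 min -1.61 to 0.18, limma adjusted p 0.977). The other Slc7a1 region had -0.19, -0.38 and -0.36. The 5 regions at Slc6a17 had values between -0.49 and 0.29 at these times.

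The Slc7a3 region (chromosome X, 98258560 to 98259580) had the lowest p among the 8. Its mean signal was low, 0.597 or percentile 13.5 of all regions, and below the pseudocount of 0.628. Its signal was 1.08 and 0.946 at 30 min in vehicle, against 0.457 and 0.767 in unstimulated neurons, a log2 fold change of 0.49 (interval -0.03 to 1.00, unadjusted p 0.0612, limma adjusted p 0.832). In U0126 at 30 min it was 0.557 and 0.642, against 1.08 and 0.946 in vehicle, a difference of -0.50 (unadjusted p 0.0554). Limma called 0 of the 8 regions and 0% of the 940 in every H3K27ac comparison, and 0 of the 8 had an unadjusted p under 0.05. In vehicle 1.28%, 4.26% and 3.94% of all regions met this at 10, 30 and 60 min of activity, and within U0126 2.23%, 3.62% and 4.36%. For U0126 against vehicle it was 0.426% in unstimulated neurons and at 10 and 60 min, and 0.851% at 30 min.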

How the data were processed

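ChIP-seq for Pol II was analysed in 31 libraries of 16 groups and for H3K27ac in 16 libraries of 8 groups, and 5 input libraries were not analysed here. Reads were processed with Bowtie2, SAMtools and bedtools, and mm9 was the genome build, per the submitters' processing notes, which give no versions. Per the file headers, the authors deposited a normalized Pol II signal (density) per TSS window of 600 bp, for which control TSSs without activity regulation served in the normalization, and an H3K27ac signal for each enhancer region on a scale they do not state. The distances to the nearest gene are in bp, per the file headers, and are an other unit that only describes regions. The files hold no read counts, so sequencing depth is unknown and intervals come from the spread between libraries.

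From these values, log2(value + pseudocount) was computed, with a pseudocount equal to percentile 25 of all positive values, which was 0.148 in the Pol II table and 0.628 in that of H3K27ac. Libraries were then centred on their median. The pseudocount makes log2 fold changes of low signals smaller than their ratios. Genes in the upper 50 percent of mean density were kept, which left 12097 with at least 0.301. They were fitted in limma 3.58.1 (R 4.3.3) on group means alone, over all groups together, with the variance allowed to follow the signal. The Pol II fit had 15 residual degrees of freedom plus 18.7 from the moderation, and the H3K27ac fit 8 plus 4.17. A Benjamini-Hochberg adjusted p under 0.05 over all features was a call. Activity at 1 to 60 min was compared with unstimulated libraries of 1 h, and at 180 and 360 min with those of 6 h, in the same arm. The script was tested on simulated data. The members, the marker and pathway lists, the comparisons and the rule for named genes were chosen with earlier results of these data known. By that rule, Slc7a1 and any called member are given in every library, with up to 3 members per direction and comparison, the members of the role lists, and from other lists called genes and up to 3 more by size. Slc6a17, Slc7a5, Slc3a2, Slc38a2, Slc43a2 and further members are also given by library, and Fos, Atf4, Azin1 and Amd1 are named, chosen after their values were seen. Promoters and start sites are from RefSeq (GRCm38.p6), in which 65 of 65 members matched by symbol and 47 have a promoter (23 of those tested). Coordinates of the 2 builds were not converted. The values of 1 tested member are not reported here, though it counts among the 33. Alternatives were other pseudocounts, filters and scalings, a replicate block, fits to the compared groups alone, the mean over all windows of a symbol, each library left out, and, added after the data were seen, all 4 unstimulated libraries of an arm as the baseline.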

Additional observations from a re-analysis of the deposited data

How the results depend on the processing

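Of 734 alternative values over all results and settings, 697 were labelled the same as in the main fit. For a fold change, this meant an unchanged direction and side of the threshold. For a count of calls, many of which stayed at 0, it meant an equal or similar count. The call of Slc7a1 at 10 min in vehicle (1.47, limma adjusted p 0.0218) ended, and the count of called members was then 0, without the density filter (1.52, adjusted p 0.123), with the mean over all windows (1.19, 0.119) and in a fit to the 4 libraries alone (1.47, 0.123). It was kept with other pseudocounts, quantile normalization, values as deposited, the upper 25 percent of genes and all 4 unstimulated libraries. With each library left out it was between 1.05 and 1.90, and called members were between 0 and 1, lost without vehicle unstimulated 1 h replicate 1 or vehicle 10 min replicate 1. At 30 min in vehicle 1 member, Slc7a5, was called with the pseudocount at percentile 50 (0.89, adjusted p 0.0494) or values as deposited (0.97, 0.0459), and 2, Slc7a5 and Slc38a2, with all 4 unstimulated libraries (0.86, 0.0243 and 0.92, 0.0115), a baseline chosen after the data were seen. With each library left out, the 30 min value in vehicle was between 0.60 and 1.29 at Slc7a5. It was between 0.43 and 0.96 at Slc3a2 and between 0.42 and 1.16 at Slc38a2. Each was lowest without vehicle 30 min replicate 1. In both arms, some fits that left 1 library in a group gave further calls at 30 min, which are not listed. Within U0126 at 30 min, Slc7a5 was between 0.57 and 1.36 with each library left out. With all 4 unstimulated U0126 libraries 1 member, Slc7a5, was called there (0.98, limma adjusted p 0.0213), with 130 calls over all genes, against 53 in the main fit. Slc7a6os at 30 min reversed to -0.04 with quantile normalization (adjusted p 0.969). Causes were not tested.

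Replicate numbers are shared between groups, but the labels do not say that they mark a shared culture. The deviations of same-numbered libraries correlated between -0.04 and 0.50 over 105 pairs of groups, 95 of them over 0.1 (with unstimulated 1 h, 0.16 for vehicle 10 min, 0.05 for 30 min and 0.18 for 60 min), and between 0.28 and 0.89 for H3K27ac. With the replicate block, 4 members were called at 30 min in vehicle (Slc7a5, Slc38a2, Slc7a1 and Slc3a2, limma adjusted p 0.00499, 0.00832, 0.0301 and 0.032). A further call was 1 at 60 min (Slc7a1, 0.0373), and 2 members were called within U0126 at 30 min (Slc7a5 and Slc3a2, 0.00713 and 0.0441). Within U0126 at 30 min, 326 of all genes were called with the block, against 53 without it. Over all genes the calls in vehicle at 10, 30 and 60 min were 23, 172 and 19. They were 131, 662 and 130 with the block, 7, 15 and 17 with quantile normalization, 10, 30 and 54 in fits to the compared groups, 73, 393 and 51 with all 4 unstimulated libraries, 5 at 10 min without the filter and 12 at 10 min with the mean over windows. Without the filter the median of all genes at 30 min was 0.14, against 0.02 with it. No difference between U0126 and vehicle, no interaction and no H3K27ac result of a member became a call under any alternative run. With 2 libraries per group and unknown depth, small differences were not detectable.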
